A study of Mus musculus with 20 samples.

Results

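The tissue kallikreins are a tight family of secreted serine peptidases, and their probes were followed here across uteri of mice given estradiol (E2), bisphenol A (BPA) or HPTE. Members were all probes on the array, controls aside, that its annotation names Klk1 or Klk1b with a number. The rule found 14 probes for 13 genes, among 41174 probes and 27962 gene or transcript names in all. Klk1, Klk1b5 and Klk1b26 are the members of most interest. The family was picked because Klk1 and Klk1b5 were among the largest increases under HPTE at 2 hr, so every value at 2 hr is given as a description without a test. Of the 14 probes, 13 passed the filter on dim signal. The probe left out, for Klk1b1, stood well above background on 1 of 20 arrays, and Klk1b16 passed only through the HPTE arrays at 2 hr.

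Each array held Cy3-labeled RNA (500 ng) from the whole uterus of a single adult, ovariectomized C57bl6/J female, at least 10 weeks old and rested for 10 to 14 days after surgery. The mice received a subcutaneous injection of sesame oil (vehicle, 3 uteri), of 250 ng E2 or of 750 µg BPA or HPTE in that oil. E2 uteri were taken at 2 hr (3) and 24 hr (2, replicates 2 and 3), and so were BPA and HPTE uteri (3 per time). The vehicle uteri are labeled as 24 hr samples and served as the control for both times. A difference from vehicle at 2 hr therefore also holds the time since injection, which this design cannot separate from the compound. BPA is a monomer of polycarbonate plastics and HPTE a metabolite of the pesticide methoxychlor. Both bind the estrogen receptor. They shared a dose, whereas E2 was given at a far lower one, so a comparison with E2 is between treatments and not between equal doses. A change in a whole uterus can come from more or fewer cells of a type or from more or less RNA per cell, and these arrays cannot tell the alternatives apart.

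Klk1, the true tissue kallikrein, cleaves kininogen and so releases kinins, short peptides that widen blood vessels and make them leaky. In the mouse the ancestral gene has been copied many times, and the copies, named Klk1b with a number, lie beside Klk1 on chromosome 7. Several are best known from the male salivary gland, Klk1b9 and Klk1b26 among them, whose proteins bind epidermal growth factor. Others, Klk1b21, Klk1b24 and Klk1b27 among them, are known from the Leydig cells of the testis. In the rat pituitary Klk1 is a well-known estrogen-induced gene.

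Because the copies are close in sequence, the probes themselves decide how far genes can be told apart. The sequences below are shown to make that visible. Each probe is 60 bases long, and positions are on chromosome 7 of the mm7 build used by the array files. The Klk1 probe (7:40402636-40402791, a span longer than the probe) and the Klk1b4 probe (7:40384768-40384923) share a run of 28 bases, written in capitals. In the Klk1b26 probe (7:40189980-40190135) the capitals mark the 21 of 26 compared bases that equal that run.
Klk1: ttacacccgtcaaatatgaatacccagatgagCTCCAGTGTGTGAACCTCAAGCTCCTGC
Klk1b4: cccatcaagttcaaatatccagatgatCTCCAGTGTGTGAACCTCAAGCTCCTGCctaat
Klk1b26: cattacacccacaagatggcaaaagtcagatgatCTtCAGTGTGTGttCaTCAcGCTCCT

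The next pair is the closest in the family. At 24 hr both probes stood above vehicle under E2, by unlike amounts, and that unlikeness was not tested. The Klk1b27 probe (7:40230425-40230484) and the Klk1b11 probe (7:40173583-40173642) differ at 6 of 60 bases, which are the capitals.
Klk1b27: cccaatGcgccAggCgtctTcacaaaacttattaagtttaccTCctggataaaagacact
Klk1b11: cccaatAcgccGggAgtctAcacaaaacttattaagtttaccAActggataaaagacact

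The Klk1b5 probe (7:40394484-40394542), shown by its first 30 bases, was unlike that of Klk1. Aligned without gaps it matched the Klk1b16 probe best, at 42 of 50 overlapping bases, although no unbroken run there was longer than 9.
Klk1b5: tgcctgaatatcacattgtcccatgttctc

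How much RNA of a neighboring copy each probe takes up was not measured. Values below are therefore given by probe, and the level of a probe is never set against that of another. All levels are log2 intensities after scaling each array to its 75th percentile.

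Several arrays stood apart in other transcripts. All 12 uterine markers were well above background on every array. Of 18 pancreas acinar markers fixed as a list, 15 are on the array, and their summed intensity was 1163 to 1440 in vehicle uteri and 759 to 1881 on the BPA and HPTE arrays. It was 1130, 6518596 and 374697 in E2 replicates 1, 2 and 3 at 2 hr, and 9973 and 27211 in the E2 replicates at 24 hr. The pancreas is a known site of Klk1 expression, so these 4 arrays are named wherever a result rests on them. The acinar gene Cela2a was well above background on those 4 arrays and no other. The summed intensity of 11 sperm cell transcripts, such as Prm1, was 198087, 65464 and 58651 in vehicle replicates 1 to 3, with 10 or 11 of the 11 well above background. In the treated groups it was between 575 and 24117. Submandibular gland transcripts were another concern for this family. Of that list, 13 transcripts are on the array. Smgc, Muc10, Dcpp, Smr1, Smr2 and Spt1 were well above background on 0 of the 20 arrays, Amy1, Aqp5, Psp and Lpo on all 20, Pip on 14 and Car6 on 10. The sum of the list was 8277 to 9566 in vehicle uteri, 50749 to 53834 under HPTE, 19255 to 49028 under BPA and 19999.6 to 503802 under E2 at 2 hr, and 4953 to 7594 under HPTE, 6061 to 6897 under BPA and 24378 to 52333 under E2 at 24 hr. That sum rests mainly on Amy1 (log2 11.28 to 18.89 over the arrays) and Aqp5 (10.64 to 15.57). No other transcript of the list exceeded 8.72, the highest level of Lpo. The sum of 6 kidney transcripts was 200 to 608 on every array. The part of these lists in the kallikrein levels was not tested.

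At 2 hr Klk1 and Klk1b5 stood far above vehicle under each of the compounds. Klk1 was at 5.84, 5.37 and 5.45 in vehicle replicates 1 to 3. It read 13.51, 13.61 and 13.56 in the HPTE uteri, 12.65, 13.04 and 11.66 in the BPA uteri, and 9.31, 16.46 and 11.19 in the E2 uteri. The HPTE values were almost equal, the BPA values spread a little more, and the E2 values ranged over several log2 units, with the highest in the replicate that held the most pancreas transcripts. No treated array overlapped the vehicle range. The mean differences from vehicle were 8.01 (SE 1.20) for HPTE, 6.90 (SE 1.20) for BPA and 6.77 (SE 1.20) for E2. In linear terms these are 257-fold, 119-fold and 109-fold. Within the slides that held both groups, the Klk1 difference was 7.77 and 8.19 for HPTE and 5.82 and 7.28 for BPA.

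Klk1b5 followed the same course. Its vehicle levels were 8.50, 7.51 and 7.71. At 2 hr it was at 15.65, 15.77 and 15.56 under HPTE, at 14.83, 15.12 and 13.74 under BPA and at 11.999, 17.92 and 13.63 under E2. The differences from vehicle were 7.75, 6.66 and 6.61, again with no overlap and again with a wide E2 group.

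E2 replicate 1 at 2 hr carried pancreas transcripts at the vehicle level, and it bears directly on these values. On that array alone Klk1 was 3.75 above the vehicle mean, Klk1b5 4.09 and Klk1b24 3.18. With replicate 2 left out, and replicate 3 with its pancreas transcripts kept, the E2 difference fell to 4.69 for Klk1 and 4.91 for Klk1b5. Klk1b24 hardly moved, from 3.79 to 3.68, and neither did Klk1b27, from 3.17 to 3.07. The remaining contribution of pancreas transcripts to the E2 levels was not tested.

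**Figure D1:**
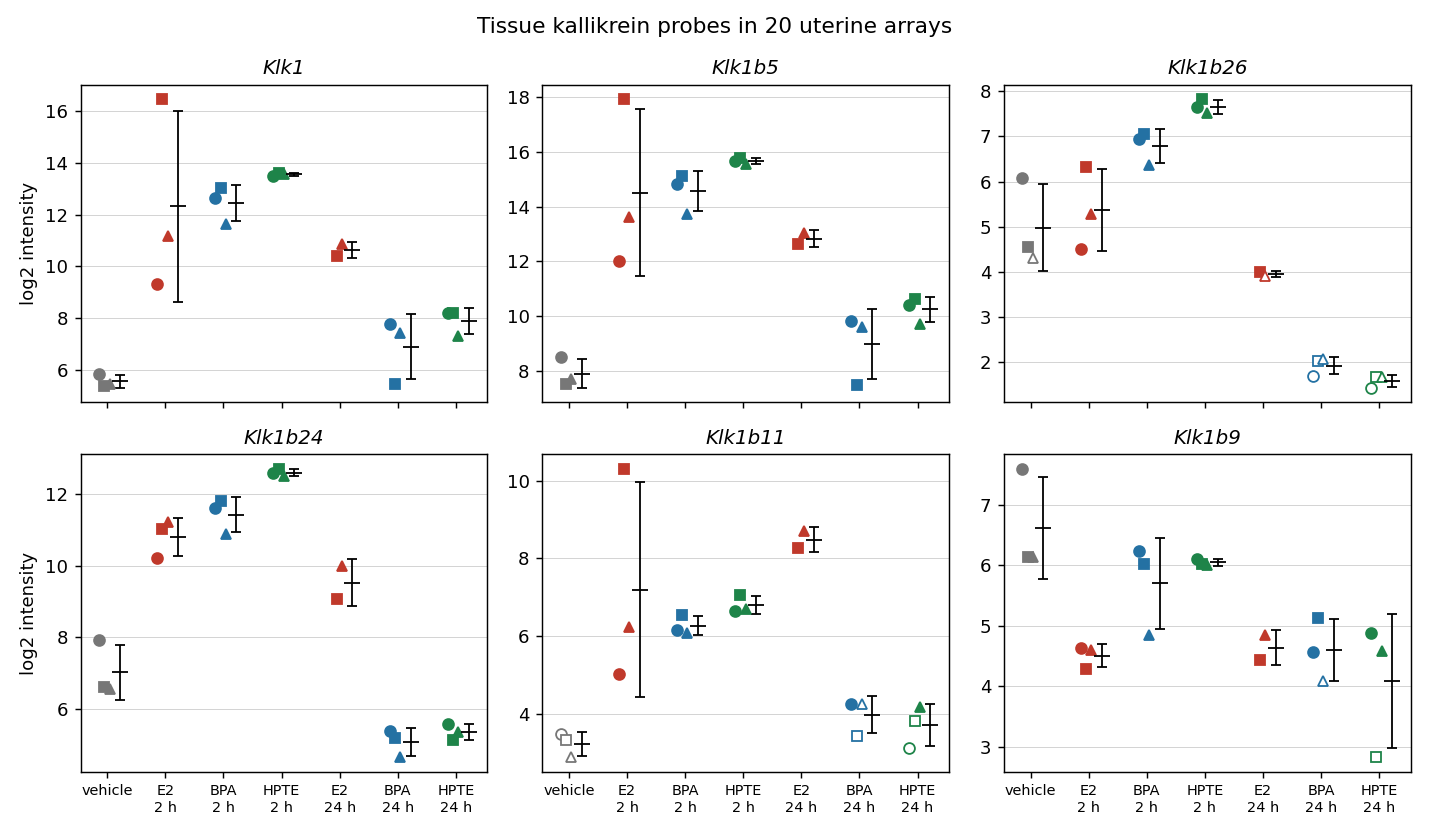
Log2 intensity (y axis, scaled to the 75th percentile of each array) of 6 kallikrein probes in the 7 groups (x axis). Circles, squares and triangles are replicates 1, 2 and 3, open symbols are arrays on which the probe was not well above background, and bars give the mean ± SD. Klk1 and Klk1b5 stand highest at 2 hr and at 24 hr are above vehicle on all E2 and HPTE arrays, while Klk1b26 at 24 hr is below vehicle under BPA and HPTE, and no group mean of Klk1b9 is above that of vehicle.

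Klk1b26, whose protein binds epidermal growth factor, moved much less at 2 hr. Its vehicle levels were 6.08, 4.54 and 4.31, the last not well above background. It was at 7.65, 7.82 and 7.51 under HPTE and at 6.95, 7.07 and 6.36 under BPA, above all vehicle arrays in both cases. Under E2 it read 4.51, 6.33 and 5.29 and overlapped vehicle. The differences were 2.68 for HPTE, 1.81 for BPA and 0.40 for E2 (SE 0.42 each), and the E2 value turned to -0.08 without replicate 2. Next to this probe on the chromosome (7:40190180-40190608) lies another that the array calls Egfbp2, an older name of Klk1b26 in RefSeq, and which the naming rule leaves out. It differed from vehicle by 4.64 under HPTE, 3.60 under BPA and 3.58 under E2, the last falling to 1.93 without E2 replicate 2. So probes assigned to a single gene gave 2 hr differences of unlike size.

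Most of the remaining copies also stood above vehicle at 2 hr. The Klk1b24 probe (7:40366158-40366217) was at 7.92, 6.60 and 6.55 in vehicle uteri, at 12.57, 12.70 and 12.50 under HPTE, at 11.59, 11.79 and 10.87 under BPA and at 10.20, 11.02 and 11.21 under E2. Its groups did not overlap vehicle, and unlike Klk1 it was not highest in the E2 replicate with the most pancreas transcripts. Klk1b27, at 6.20, 4.88 and 5.53 in vehicle uteri, likewise read 8.15, 8.91 and 9.07 in E2 replicates 1 to 3. For both probes replicate 1, with pancreas transcripts at the vehicle level, was the lowest E2 array at 2 hr. Under HPTE, differences from vehicle were 6.55 for Klk1b3, 5.83 for Klk1b4, 5.57 for Klk1b24, 5.49 for Klk1b27, 5.24 for Klk1b21 and 4.79 for Klk1b8. The second Klk1 probe, which lists 4 RefSeq transcripts, differed by 4.85 against 8.01 for the first. For Klk1b11 no vehicle array, and every array at 2 hr, was well above background, which made it at least 8.10-fold higher under HPTE, at least 5.59-fold higher under BPA and at least 10.6-fold higher under E2. The E2 bound was at least 3.61-fold without replicate 2, which held the most pancreas transcripts.

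Klk1b9 did not follow the others. It was at 7.59, 6.14 and 6.13 in vehicle uteri and at 4.64, 4.28 and 4.60 in E2 uteri at 2 hr, a difference of -2.11 with every E2 array below every vehicle array. The HPTE arrays (6.11, 6.02 and 6.01) lay just under the vehicle range, a difference of -0.57, and the BPA arrays overlapped it. Klk1b16, the gene of gamma-renin, was dim on most arrays and read 4.76 to 5.14 under HPTE at 2 hr, within the vehicle range of 2.14 to 5.22.

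Over the 13 probes fitted, the median difference at 2 hr was 5.24 for HPTE, 4.31 for BPA and 3.79 for E2, beside -0.09, -0.10 and -0.06 over all 32456 probes fitted. Without E2 replicate 2 the E2 median was 2.47. In limma at an adjusted p of 0.05, 11 were called higher under HPTE (19.9% of all probes were), 11 under BPA (19.3%) and 10 under E2 (11.1%), with Klk1b9 called lower under E2 (17% of all probes were). The family was chosen on these contrasts, so nothing is read from the counts.

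**Figure D2:**
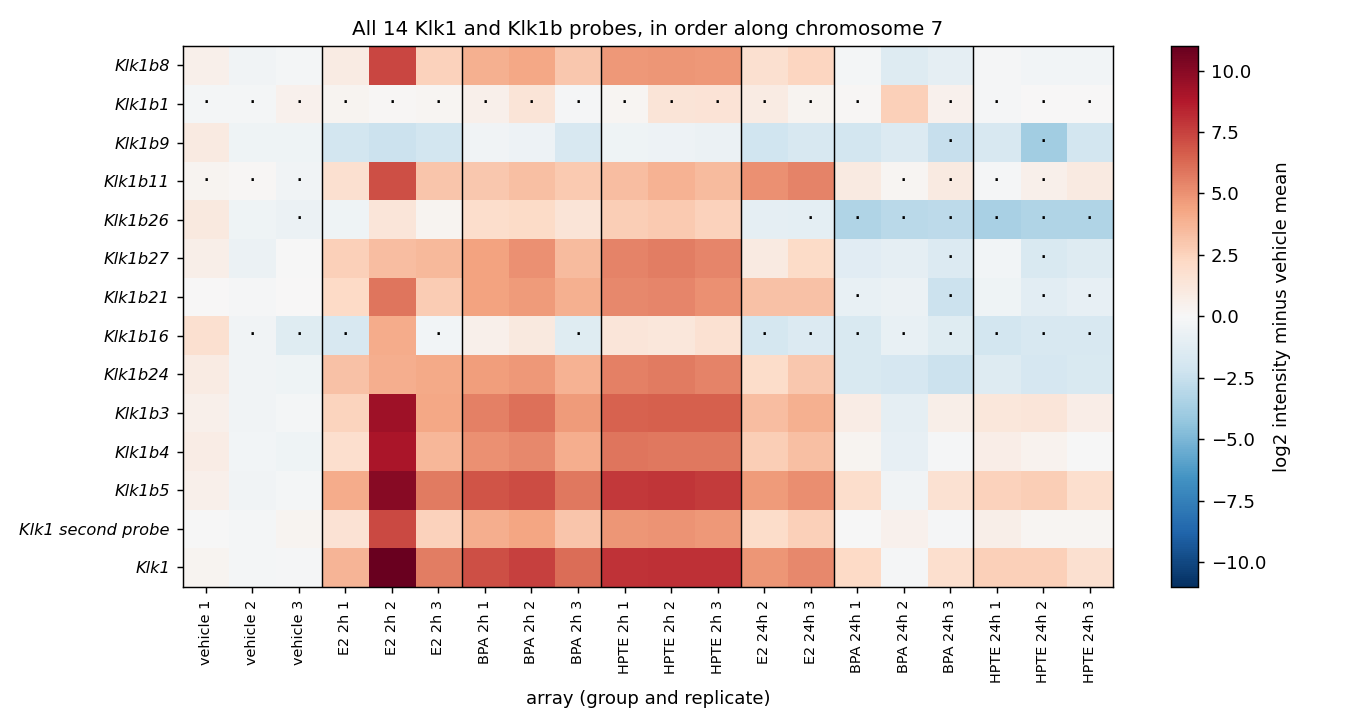
Difference in log2 intensity from the vehicle mean (color) for the 14 kallikrein probes (rows, in chromosome order) on the 20 arrays (columns, by group), with dots where a probe was not well above background. The block of high values covers most rows at 2 hr under all compounds and, at 24 hr, the E2 columns, while Klk1b9 and Klk1b1 stay outside it.

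Between HPTE and BPA at 2 hr limma called 0 of 13 probes (0.438% of all probes were called) and 2 at an unadjusted p of 0.05. Each HPTE array was above each BPA array for 12 of the 14 probes (10.1% of all probes showed this), on arrays that took part in the choice of the family. The differences were alike in size, 1.11 for Klk1 (95% interval -1.46 to 3.68), 1.10 for Klk1b5, 1.17 for Klk1b24 (0.37 to 1.97) and 0.87 for Klk1b26 (-0.03 to 1.77). The exceptions were Klk1b9 and Klk1b1. Within the 3 slides that held both groups the Klk1 difference was 1.95, 0.91 and 0.47. With all arrays the level of Klk1 under E2 could not be ordered against either compound, with a difference of 0.13 for BPA (-2.44 to 2.70) and 1.24 for HPTE (-1.33 to 3.81), the E2 group being the widest. Without E2 replicate 2, which held the most pancreas transcripts, Klk1 was above E2 by 2.20 under BPA (0.85 to 3.56) and by 3.31 under HPTE (1.96 to 4.67). E2 replicate 3, which also carried pancreas transcripts (374697 summed), stayed in that fit, and its part was not tested. Klk1b26 was above all E2 arrays under BPA by 1.41 (0.51 to 2.32) and under HPTE by 2.28 (1.38 to 3.19). Klk1b24 was above E2 under HPTE by 1.78 (0.98 to 2.58). These differences are descriptions, since the 2 hr arrays took part in the choice of the family.

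By 24 hr the compounds had parted. Uteri given E2, all with pancreas transcripts at this time, still had raised levels of most copies. No copy passed the test as raised under BPA or HPTE in the main fit. Without E2 replicate 2 at 2 hr, 2 probes passed as raised under HPTE, those of Klk1 and Klk1b5. The vehicle arrays used here are those of the 2 hr contrasts that chose the family. The 24 hr arrays were not named in the choice, but it was made with earlier results of these data known. Independence of the 24 hr tests from the choice is therefore not assured. Under E2, 7 of 13 probes were called higher (26.3% of all probes were) and Klk1b9 lower (37.6%). Under BPA and under HPTE the count called higher was 0 by limma, where 5.09% and 14.9% of all probes were. At an unadjusted p of 0.05 it was 0 for BPA and 1 for HPTE, the probe being Klk1b5. The number called lower was 3 under each (8.03% and 19.1% of all probes). The median difference over the family was 2.51 for E2, -0.87 for BPA and -0.25 for HPTE, beside -0.15, -0.03 and -0.06 over all probes.

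Klk1 stood at 10.42 and 10.86 in the E2 uteri at 24 hr, against a vehicle maximum of 5.84. The difference of 5.09 (SE 1.35, 95% interval 2.21 to 7.96) had an adjusted p of 0.00387 in limma. For Klk1b5 the E2 uteri read 12.62 and 13.05, a difference of 4.93 (adjusted p = 0.00168). Klk1b24 was at 9.06 and 9.99, higher by 2.51 (adjusted p = 9e-05). All of these values lay above their vehicle ranges. Klk1b11, not well above background in vehicle uteri, reached 8.25 and 8.71, at least 25.9-fold higher (adjusted p = 0.000226). Klk1b21 rose by 3.25, Klk1b3 by 3.65 and Klk1b27 by 1.54 (adjusted p between 0.00169 and 0.0217). Klk1b4 (3.01), Klk1b8 (2.04) and the second Klk1 probe (2.34) did not pass, with adjusted p of 0.0548, 0.143 and 0.0656, although both E2 arrays were above all vehicle arrays for each.

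Both E2 uteri at 24 hr carried pancreas transcripts, at 9973 and 27211 summed, and no E2 array at this time was free of them. Their part in the E2 values at 24 hr was not tested. On the slide shared by E2 replicate 3 and vehicle replicate 3, Klk1 differed by 5.41 and Klk1b5 by 5.33. The wide E2 group at 2 hr enters the spread of the whole fit, and without its replicate 2 the standard error for Klk1 at 24 hr fell to 0.63. In that fit 12 of 13 probes were called under E2, 10 higher and 2 lower (64.1% of all probes were called in either direction).

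**Figure D3:**
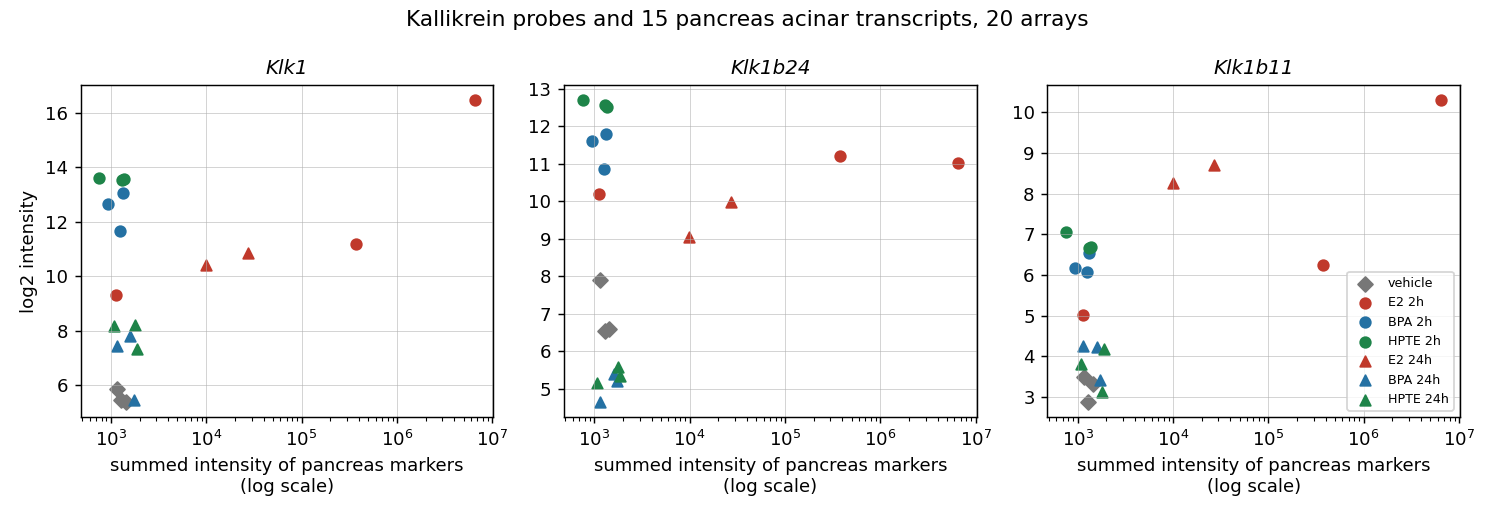
Log2 intensity of Klk1, Klk1b24 and Klk1b11 (y axes) against the summed intensity of 15 pancreas acinar transcripts (x axis, log scale), with 1 symbol per array, diamonds for vehicle, circles for 2 hr and triangles for 24 hr. BPA and HPTE arrays at 2 hr have high Klk1 at the vehicle level of pancreas transcripts (759 to 1440 summed), and the E2 array with the largest sum (6518596) has the highest Klk1 but not the highest Klk1b24.

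Under BPA at 24 hr Klk1 was at 7.78, 5.47 and 7.43, so replicate 2 lay within the vehicle range and the others above it. The difference of 1.34 had an interval of -1.23 to 3.91 (adjusted p = 0.510). Klk1b5 read 9.83, 7.51 and 9.62 and behaved alike, with a difference of 1.08 (adjusted p = 0.544). Within slides the BPA difference of Klk1 was 0.09 on the slide with replicate 2 and 2.33 on the other.

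Under HPTE at 24 hr Klk1 was at 8.20, 8.18 and 7.31 and Klk1b5 at 10.43, 10.61 and 9.73, all above vehicle. Their differences were 2.34 (-0.23 to 4.91, adjusted p = 0.149) and 2.35 (0.13 to 4.57, adjusted p = 0.0948). Neither passed. Without E2 replicate 2 at 2 hr, whose spread enters the same fit, both did, with adjusted p of 0.00598 and 0.00622. In that fit 5 probes rather than 3 were called under HPTE, 2 higher and 3 lower (34.4% of all probes were called in either direction). On the slide shared with vehicle the differences of Klk1 and Klk1b5 were 1.86 and 2.02.

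Klk1b26, Klk1b24 and Klk1b9 fell below vehicle at 24 hr under both xenoestrogens. Klk1b26 was at 1.70, 2.02 and 2.06 under BPA and at 1.44, 1.67 and 1.67 under HPTE, on no array well above background. It was thus at least 2.43-fold lower under BPA (adjusted p = 0.000432) and at least 2.45-fold lower under HPTE (adjusted p = 3.86e-05). The measured means were 1.93 and 1.59 beside 4.98 in vehicle uteri, where 2 of 3 arrays were well above background. Klk1b24 was at 5.39, 5.20 and 4.65 under BPA and 5.57, 5.15 and 5.35 under HPTE, all below the lowest vehicle value of 6.55. It fell by 1.94 (adjusted p = 0.00334) and by 1.66 (adjusted p = 0.00343). Klk1b9 fell by 2.03 and 2.53 (adjusted p = 0.0166 and 0.0016). For E2 the Klk1b26 arrays read 4.01 and 3.91, a difference of -1.02 that did not pass (adjusted p = 0.0726). The neighboring Egfbp2 probe went the other way under E2, at 9.66 to 10.30 against a vehicle range of 7.73 to 8.76.

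These decreases are measured against vehicle arrays that carried sperm cell transcripts at 58651 to 198087 summed, where BPA arrays at 24 hr had 5830 to 10585 and HPTE arrays 2424 to 3314. Vehicle replicate 1, with the most sperm cell transcripts, was also the highest vehicle array for Klk1b9, Klk1b24, Klk1b26 and Klk1b27. The same held for Klk1 and Klk1b5, whose means did not fall below vehicle. The part of the sperm cell transcripts in the decreases was not tested. Without vehicle replicate 1 Klk1b26 was still called under BPA (adjusted p = 0.000953) and under HPTE, Klk1b24 was called with differences of -1.495 and -1.22 (adjusted p = 0.0167 and 0.0185), and Klk1b9 was no longer called under BPA (-1.54, adjusted p = 0.0958). Under normexp background correction with quantile normalization the BPA and HPTE differences of Klk1b26 shrank to -0.39 and -0.42 and those of Klk1b24 to -0.75 and -0.62, and of these 4 only Klk1b26 under HPTE was called. The neighboring Egfbp2 probe did not pass in either case, at -1.22 (adjusted p = 0.416) and -0.89 (adjusted p = 0.488).

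**Figure D4:**
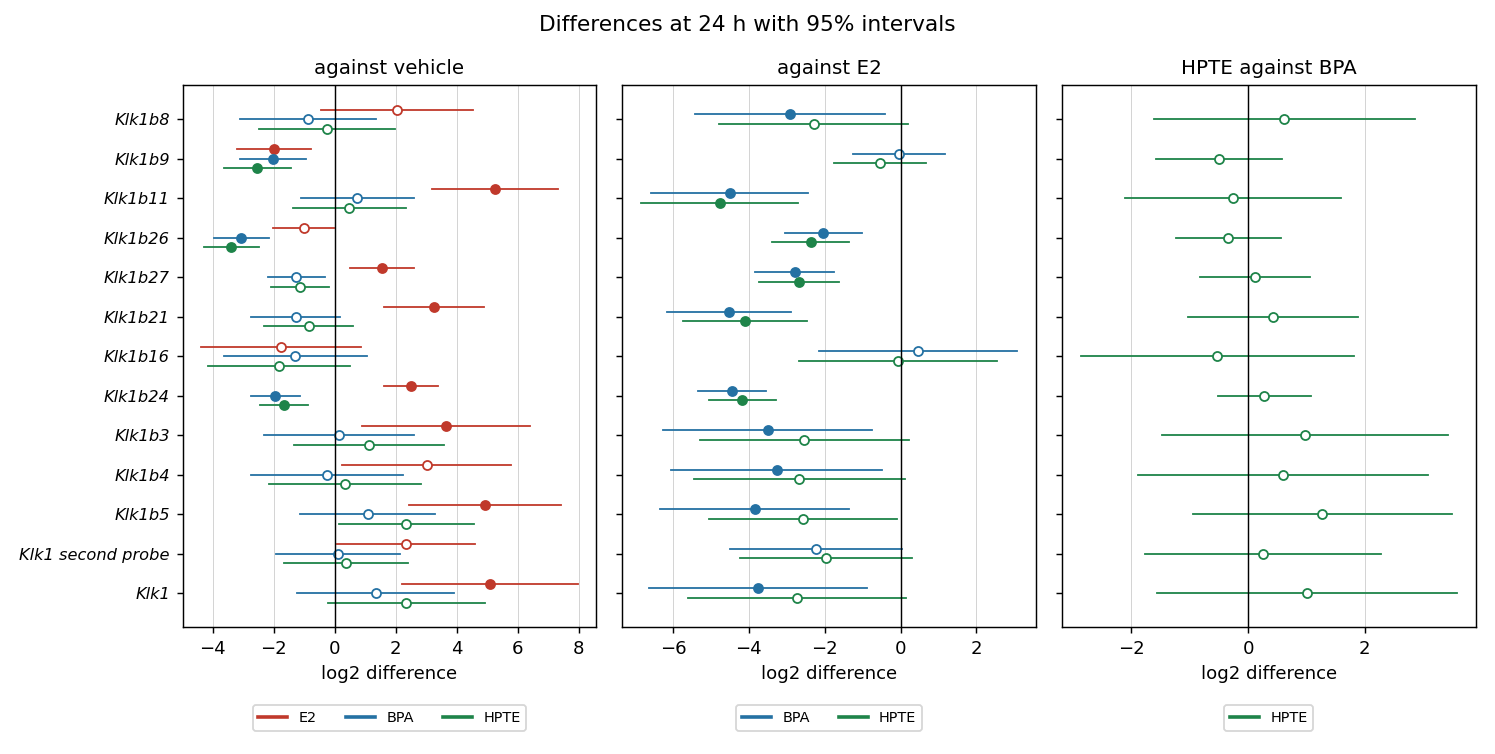
Differences in log2 intensity at 24 hr (x axes) with 95% intervals for the 13 fitted kallikrein probes (rows), against vehicle, against E2 and between HPTE and BPA. Filled symbols passed an adjusted p of 0.05. E2 lies to the right of vehicle for most rows, BPA and HPTE lie to the left of E2 for all rows that passed, and no row passed between HPTE and BPA. Klk1b26 under BPA and HPTE was not well above background, so the sizes drawn for it are not measured.

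Compared directly at 24 hr, BPA and HPTE stood below E2, with doses that were not equal. For BPA 10 of 13 probes were called lower than E2 (24.6% of all probes were), and for HPTE 5 of 13 (21.6%). Klk1b24 was lower by 4.45 under BPA (adjusted p = 4.15e-07) and by 4.17 under HPTE (adjusted p = 1.35e-06), with all xenoestrogen arrays below both E2 arrays. Klk1b21 differed by -4.53 and -4.10, Klk1b11 by -4.51 and -4.77, and Klk1b27 by -2.80 and -2.68 (adjusted p at most 0.000999). Of the 3 arrays of BPA and of HPTE, Klk1b11 and Klk1b21 were well above background on 1 each and Klk1b27 on 2 each. Klk1 was lower than in E2 uteri by 3.75 under BPA (adjusted p = 0.0265) and differed by -2.74 under HPTE (adjusted p = 0.107). For Klk1b5 the differences were -3.85 (adjusted p = 0.0103) and -2.58 (adjusted p = 0.0798). Leaving out E2 replicate 2 at 2 hr raised the HPTE count to 11, all lower (49.2% of all probes were called in either direction). Leaving out E2 replicate 1 at 2 hr raised it to 9. For fits without any other array the share over all probes was not computed. The BPA count was lowered to 5 without E2 replicate 3 at 24 hr and to 6 without E2 replicate 2 or BPA replicate 2 at 24 hr, and in these cases Klk1 was no longer called between BPA and E2 (adjusted p = 0.117, 0.0764 and 0.0948). The pancreas transcripts of the E2 arrays apply here too. Klk1b26 was on no BPA or HPTE array well above background and on 1 of 2 E2 arrays, at least 1.20-fold lower under BPA (adjusted p = 0.00183) and at least 1.21-fold lower under HPTE (adjusted p = 0.00071).

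BPA and HPTE, given at the same dose, were not told apart at 24 hr. The number of probes called between them was 0 by limma (4.08% of all probes were called), also at an unadjusted p of 0.05 and under each alternative run. The intervals were wide, however. HPTE minus BPA was 1.003 for Klk1 (-1.57 to 3.57), 1.27 for Klk1b5 (-0.95 to 3.49), 0.28 for Klk1b24 (-0.52 to 1.08) and -0.34 for Klk1b26 (-1.24 to 0.57), so differences in Klk1 up to the upper bound remain within its interval.

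Levels under the xenoestrogens were far lower at 24 hr than at 2 hr. The difference was -5.56 under BPA and -5.66 under HPTE for Klk1, -5.58 and -5.41 for Klk1b5 and -6.34 and -7.23 for Klk1b24, with the 24 hr arrays below all 2 hr arrays. Under E2 it was -1.68 for both Klk1 and Klk1b5, with overlapping groups, and -1.28 for Klk1b24, without overlap. The values for Klk1 and Klk1b5 rested on E2 replicate 2 at 2 hr, the array with the most pancreas transcripts, and without it they turned to 0.39 and 0.02, whereas that of Klk1b24 was -1.18. Klk1b11 under E2 was higher at 24 hr than at 2 hr by 1.29, also with overlap. Its 24 hr values of 8.25 and 8.71 lay above E2 replicates 1 and 3 at 2 hr (5.03 and 6.24) and below replicate 2 (10.30). No test was made of these changes over time, because the 2 hr arrays chose the family.

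Along the chromosome the probes span 274.553 kb from Klk1b8 to Klk1. The copies nearest to Klk1, which are Klk1b5, Klk1b4 and Klk1b3, lie within 27.106 kb and had the patterns most like it over the 20 arrays, with Pearson r of 0.997, 0.978 and 0.992. Klk1b24, 36.478 kb away, had an r of 0.853, Klk1b27 0.852, Klk1b26 0.700 and Klk1b9 -0.008. Position did not order them all, since Klk1b8 at the far end had an r of 0.958 and a probe beside it that is named by an accession only (7:40136135-40136194) 0.991. These are descriptions over arrays of 7 groups.

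**Figure D5:**
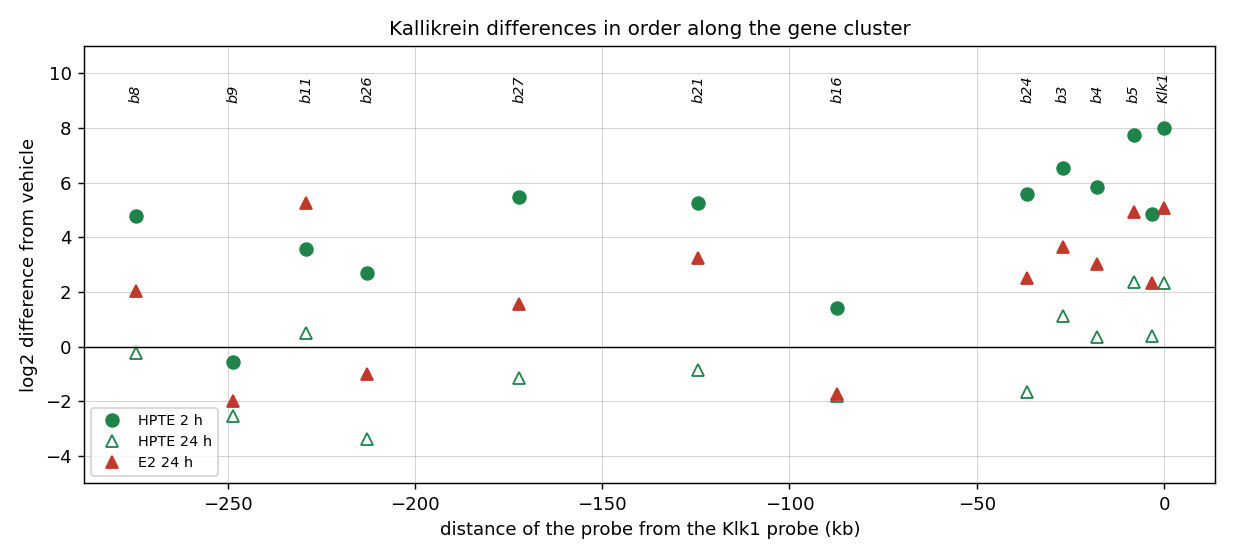
Difference from vehicle in log2 intensity (y axis) of each kallikrein probe under HPTE at 2 hr, HPTE at 24 hr and E2 at 24 hr, against its distance in kb from the Klk1 probe (x axis). HPTE at 2 hr is highest for the first Klk1 probe (8.01) and Klk1b5 (7.75), whereas the second Klk1 probe, 3.283 kb from the first, is at 4.85. HPTE at 24 hr lies below 0 for Klk1b24 (-1.66), 36.478 kb away. The point of Klk1b26 at 24 hr under HPTE is a signal not well above background on any array, so its height is not measured.

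The stretch before each transcription start is shown for the 3 main members because their copies are similar there too. RefSeq on GRCm38.p6 gave windows for 14 genes of the family, 250 bases before to 50 after the start, Klk1b22 included, which the array does not name. The 250 bases before the start are printed 5′ to 3′ on the plus strand, with capitals for TTTAAA, a variant of the TATA box, and for TGACC or its complement GGTCA, the repeat unit of the estrogen response element. They are Klk1 (7:44225110-44225359), Klk1b5 (7:44216224-44216473) and Klk1b26 (7:44012428-44012677).
Klk1: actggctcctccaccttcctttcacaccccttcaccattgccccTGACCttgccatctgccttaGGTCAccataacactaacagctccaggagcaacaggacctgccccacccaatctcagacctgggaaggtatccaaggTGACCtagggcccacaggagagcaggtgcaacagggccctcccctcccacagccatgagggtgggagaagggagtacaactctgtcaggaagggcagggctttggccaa
Klk1b5: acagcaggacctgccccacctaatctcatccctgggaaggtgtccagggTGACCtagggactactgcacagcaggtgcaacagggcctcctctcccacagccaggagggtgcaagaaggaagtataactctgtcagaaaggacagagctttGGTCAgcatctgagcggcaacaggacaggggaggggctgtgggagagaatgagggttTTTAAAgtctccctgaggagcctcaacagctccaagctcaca
Klk1b26: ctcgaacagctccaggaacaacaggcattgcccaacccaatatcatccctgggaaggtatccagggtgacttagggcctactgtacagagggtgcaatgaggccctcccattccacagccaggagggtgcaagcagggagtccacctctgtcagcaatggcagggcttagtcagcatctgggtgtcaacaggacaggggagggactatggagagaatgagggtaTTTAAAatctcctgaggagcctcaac

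On either strand, TGACC was found in 11 of the 14 windows and in 40.5% of all 32851 windows. The windows without it were those of Klk1b26, Klk1b11 and Klk1b16. The full estrogen response element, GGTCA and TGACC with 3 bases between, was in 0 windows of the family and in 0.0700% of all. TTTAAA was in 13 windows, all but that of Klk1, against 13.2% of all windows, and TATAAA in 0 against 13.6%. The AP-1 motif TGANTCA was in 0 (7.81% of all) and the Sp1 motif GGGCGG in 1, that of Klk1b22 (35.7% of all). Such matches describe letters in a short window, and copies of a duplicated gene are not independent cases.

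Other genes of the kallikrein-kinin system, their substrates, receptors, inhibitors and the enzymes that degrade kinins, are given for comparison. Most of them fell at 24 hr under E2. Of 22 listed genes, 20 are on the array and 17 were fitted. Under E2 0 rose and 2 fell at 2 hr, and 0 rose and 11 fell at 24 hr, beside 17% and 37.6% of all probes called lower, and both counts of rises in limma stayed 0 at an unadjusted p of 0.05. The median difference at 24 hr was -0.76, against -0.15 over all probes. The xenoestrogens gave 0 up and 4 down for BPA and 1 up and 4 down for HPTE at 2 hr (30.2% and 28.2% of all probes were called lower), and 1 up and 1 down for BPA and 1 up and 3 down for HPTE at 24 hr. Of all probes, 11.1%, 19.3% and 19.9% were called higher at 2 hr under E2, BPA and HPTE and 26.3%, 5.09% and 14.9% at 24 hr, and 8.03% and 19.1% were called lower at 24 hr under BPA and HPTE. For BPA at 2 hr 1 gene was higher at an unadjusted p of 0.05. The kininogen gene Kng1 and the receptor gene Bdkrb1, looked up for their roles after the values were known, were not called higher in any contrast with vehicle. In the E2 uteri at 24 hr Kng1 fell by 1.21 (adjusted p = 0.00439).

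Among the inhibitors, Serpina5, the gene of protein C inhibitor, which also blocks tissue kallikrein, had the largest differences. Its vehicle mean was 6.93, and it was not well above background on any E2 array or on any HPTE array at 24 hr. It was at least 8.11-fold lower under E2 at 2 hr (adjusted p = 5.35e-05), at least 8.85-fold lower under E2 at 24 hr (adjusted p = 7.35e-06) and at least 9.47-fold lower under HPTE at 24 hr (adjusted p = 2.33e-05). Under BPA it fell by 2.51 at 2 hr and by 3.05 at 24 hr (adjusted p = 0.00236 and 0.00321). Its mean was highest in the vehicle uteri, which carried the sperm cell transcripts, and the part of these was not tested. Serping1, which encodes the C1 inhibitor, an inhibitor of plasma kallikrein, fell by 1.57 under E2 at 24 hr (adjusted p = 1.29e-06). Xpnpep2, an aminopeptidase that degrades bradykinin, fell by 1.58 under HPTE at 2 hr, by 2.05 under E2 at 24 hr and by 1.35 under HPTE at 24 hr (adjusted p = 0.0106, 0.00278 and 0.0351).

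The related peptidases Klk4 to Klk15, also lie on chromosome 7. Of 12 listed genes, 11 are on the array and 7 were fitted. Klk4 rose by 0.54 under HPTE at 2 hr (adjusted p = 0.0495), the only increase called by limma in any of the 6 contrasts with vehicle (19.9% of all probes were called higher in that one and 26.3% under E2 at 24 hr). Klk8 fell by 0.49 under BPA at 2 hr and by 0.93 under E2 at 24 hr (adjusted p = 0.00262 and 1.42e-05). Klk14 was not well above background on either E2 array at 24 hr, at least 1.73-fold lower than vehicle (adjusted p = 0.039), so that 2 of 7 were lower there, where 37.6% of all probes were. At an unadjusted p of 0.05 a further gene was higher under E2 at 2 hr, and none was called in either direction under BPA or HPTE at 24 hr, where that count was 0 too.

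Outside the family, the genes whose pattern was most like that of Klk1 over the 20 arrays included Trabd (Pearson r 0.941), Adamts9 (0.940), Irgq (0.931) and Mcart1 (0.922). Over the 15 arrays without E2 they were Wbp4 (0.991), Hook3 (0.987), Irgq (0.985), Adamts9 (0.984) and Ube2j2 (0.984). Irgq and Adamts9 were in both lists. Adamts9, a secreted metalloprotease, had mean levels of 7.19 in vehicle uteri, 9.504 under HPTE at 2 hr, 8.42 under E2 at 24 hr and 7.90 under HPTE at 24 hr. It thus showed the order seen for Klk1 over these groups with a far smaller span, and it was picked by its correlation with Klk1. Under BPA at 2 hr its mean was 9.507, without the step from BPA to HPTE seen for Klk1.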

How the data were processed

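Total uterine RNA was hybridized to single-color Agilent whole-genome arrays, 20 arrays on 6 slides read on 2 scan days. Per the file headers, Agilent Feature Extraction (9.5 in the submitters' processing notes) produced the deposited processed signal intensity of each spot after background subtraction. The intensity table deposited for the whole series held the same values. Intensities were converted to log2, averaged over the spots of a probe and centered on the 75th percentile of each array (1320 to 2046). The log2 of the mean percentile, 10.72, was added back. Between 72.7% and 81.3% of probes per array were well above background, and the number of arrays limits the precision. The lowest such signal per array, on the log2 scale, was 2.82 to 4.29 and sets the bounds given as "at least".

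A probe was fitted if it was well above background on all arrays of at least 1 group and missing on at most 2 arrays. For 32456 of 41174 probes a model of the 7 group means was fitted in limma 3.58.1 (R 4.3.3) with moderated variances (eBayes). The p-values were Benjamini-Hochberg adjusted over all fitted probes within a contrast, with 0.05 as threshold. Adjusted p-values in the text are from this limma fit. It used the measured log2 values, also where a bound on the size is printed beside the p-value. Replicates were separate uteri, and replicates within a group correlated at 0.975 to 0.993. The procedure was tested on simulated data. Array symbols were matched to RefSeq, which found all 14 kallikrein probes.

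The members, gene lists and markers (uterus, pancreas, sperm cells, submandibular gland, kidney) were chosen with earlier results of these data known. Named genes were all kallikrein probes, at most 4 genes per pathway list with the largest called differences, and the 5 genes most correlated with Klk1, without clones and unnamed transcripts. Of these, a gene of a pathway list and a correlated gene are not reported here. Beside these, the Egfbp2 probe and an unnamed neighbor are given as probes outside the rule. Alternatives covered background correction, normalization, filter, weights, slide, replicate number and leaving out each array. Leaving out the 4 E2 arrays with pancreas transcripts was chosen after seeing the data.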

Additional observations from a re-analysis of the deposited data

Results flagged for a closer look

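Some members lay above vehicle on every array of a group and below it on every array of another group of the same contrast. The difference between times was not tested. Klk1b26 was 1.81 above vehicle on the log2 scale under BPA at 2 hr and at -3.05 at 24 hr, and under HPTE it was at 2.68 and -3.39. No BPA or HPTE array at 24 hr was well above background for it, so only bounds of at least 2.43-fold and 2.45-fold lower are measured and the sizes of -3.05 and -3.39 are not. Klk1b24 was at 4.40 and -1.94 under BPA and at 5.57 and -1.66 under HPTE. Klk1b21 was at 4.34 and -1.28 under BPA and at 5.24 and -0.85 under HPTE, and Klk1b27 was at 4.31 and -1.25 under BPA.

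At 24 hr Klk1b24 (2.51), Klk1b21 (3.25) and Klk1b27 (1.54) were above vehicle on both E2 arrays, and below it on all BPA arrays. Klk1b24 and Klk1b21 were also below it on all HPTE arrays. These differences between compounds are the ones tested directly in the contrasts with E2. Of the negative values, those of Klk1b26 and Klk1b24 passed the limma test against vehicle, and those of Klk1b21 and Klk1b27 did not. In each case the vehicle arrays were those with the sperm cell transcripts, and their part was not tested.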

How the results depend on the processing

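Of 2493 values of single probes under an alternative, 2488 kept their direction, 71 no longer passed the threshold and 18 newly passed it. The 5 that turned were small ones. Klk1b26 under E2 at 2 hr went to -0.081 without E2 replicate 2 and to -0.47 without the 4 E2 arrays with pancreas transcripts, and its values when each array was left out ranged from -0.081 to 0.95. Within slide 3 Klk1b5 under BPA at 24 hr was at -0.0036, and within slide 5 HPTE minus BPA at 24 hr was -0.10 for Klk1b5 and -0.47 for Klk1. The cause was not tested. The counts of called probes depended on settings as follows. Except without E2 replicate 2 at 2 hr, the share of all probes called was not computed for these alternatives. A changed count is therefore not read as particular to the family. With normexp background correction and quantile normalization together 6 rather than 10 probes were called between BPA and E2 at 24 hr, and 1 rather than 3 under BPA. Array weights gave 5 under HPTE at 24 hr in place of 3, as did leaving out the 4 E2 arrays. With only the groups compared in the fit, fewer arrays share the spread. The counts were then 6 for E2 at 2 hr, 1 for BPA and 7 for HPTE at 24 hr (3 higher and 4 lower), and 11 between HPTE and E2. When each array was left out in turn, counts at 24 hr ranged from 6 to 12 for E2, 2 to 4 for BPA, 3 to 5 for HPTE, 5 to 11 between BPA and E2 and 5 to 11 between HPTE and E2. Between HPTE and BPA at 24 hr the count was 0 under every alternative run. Of same-numbered pairs of samples, 12 of 57 deviated together (r over 0.1), so the numbers were not taken to pair the uteri, and with a replicate block the count between BPA and E2 at 24 hr was 8, with no other count changed. Slides as a random block (correlation 0.0146) changed no count, and slides as a fixed block gave 10 rather than 8 for E2, 2 for BPA and 2 for HPTE at 24 hr. Scaling to spike-in spots moved the median difference of all probes under HPTE at 24 hr from -0.06 to -0.31, and the kallikrein probes kept their directions under it. Dim probes such as Klk1b26 are limited by background, where the measured difference depends most on its correction.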
